A study of Mus musculus with 3 samples.

Results

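The replication-dependent histone genes are the members of the mouse histone gene clusters, taken here as every gene whose symbol begins with Hist1h, Hist2h, Hist3h or Hist4h. Of 17250 gene names in the deposited tables, 61 met this rule. They comprised 6 H1, 15 H2A, 16 H2B, 12 H3 and 12 H4 genes, with the pseudogene Hist3h2bb-ps (3, 3 and 5 reads at 0, 3 and 5 days) counted among H2B. By the GENCODE M21 annotation (GRCm38), 48 belong to the Hist1 cluster on chromosome 13, 9 to Hist2 on chromosome 3, 3 to Hist3 on chromosome 11 and 1 to Hist4 on chromosome 6. The RNA came from bone marrow (BM) cells flushed from the bones of C57BL/6 mice 6 to 8 weeks old. The mice received recombinant LECT2, a secreted protein named leukocyte cell-derived chemotaxin 2, under the skin, in daily doses of 300 μg/kg, over 0, 3 or 5 days. Each of the 3 time points was represented by 1 library, and the number of mice behind a library was not given in the sources used here. What the mice of the 0-day library received in place of LECT2 was likewise not given there.

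In all, 15523952, 15146983 and 15514673 reads were counted on genes at 0, 3 and 5 days. Levels are given as reads, or as RPKM (reads scaled by the listed gene length and by the reads on all genes) where genes are compared. RPM is scaled by the reads on all genes alone. Each time point rested on a single library, so differences had no replicate check, and no test or p-value was computed. Each log2 ratio of a gene is a difference in log2(RPKM + 0.1), a scale on which changes of low genes come out too small. The 95% interval beside a ratio was derived from both read counts by the exact Clopper-Pearson method and covers counting error only, because reads amplified by PCR and not tagged by molecule are no independent draws. No fold is given for a gene with at most 3 reads in either library, a level called the floor below.

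Replication-dependent histone genes supply the proteins that package newly copied DNA. H2A, H2B, H3 and H4 form the nucleosome core, and H1 binds the linker DNA between nucleosomes. Their transcription is tied to S phase, and most of their mRNAs end in a conserved stem-loop in place of a poly(A) tail. The stem-loop is bound by SLBP, which directs processing, translation and decay of the mRNA. Some members also have a poly(A) signal further downstream and are made as polyadenylated mRNA in cells that have left the cell cycle or are differentiating. The libraries were made from RNA captured on oligo(dT) beads, so that the reads of these genes count the histone RNA that the beads retained. Bone marrow is a mixture, and in such bulk RNA fewer cells of one type and less RNA per cell cannot be told apart.

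The ends of the transcripts are shown first, because they bear on what the beads could retain. In the GENCODE M21 transcripts, a histone stem-loop of 16 bases was found in 41 of the 61 members. A poly(A) signal, AATAAA or ATTAAA, lay within the last 50 bases of 15. Of these, 13 had both, and 18 members had neither in the annotated transcript. Some of the 18 have short annotated transcripts, such as 312 bases in Hist1h4k and 381 bases in Hist1h2bl. The end of the mRNA may be missing from these, so that neither element could be found. Capitals mark the stem and loop in the following lines, which give the abundant H1 and H2A genes, and examples of H2B, H3 and H4.
Hist1h1c: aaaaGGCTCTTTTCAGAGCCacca
Hist1h2ao: aaaaGGCTCTTTTCAGAGCCatcc
Hist3h2a: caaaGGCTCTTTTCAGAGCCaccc
Hist1h2bg: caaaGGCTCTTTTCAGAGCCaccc
Hist1h3g: taaaGGCTCTTCTTAGAGCCaccc
Hist4h4: caaaGGCCCTTTTCAGGGCCcaca
Hist1h4i: taaaGGCCCTTTTTAGGGCCacca
Hist1h4b: aaaaGGTCCTTTTCAGGACCactc
Hist4h4 and Hist1h4i have the same stem and differ in the loop, and the stem of Hist1h4b is another. The stem-loop of Hist1h1c lay 840 bases before the end of its transcript, that of Hist3h2a 1643 bases before and that of Hist4h4 2445 bases before. In Hist1h2ao it lay 31 bases before the end. The next lines give the poly(A) signals, in capitals, of 4 members whose reads are described below. Hist2h2be had a poly(A) signal and no stem-loop in its annotated transcript.
Hist1h1c: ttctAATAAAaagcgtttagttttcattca
Hist3h2a: gcccAATAAAataagagtacgtgtataaca
Hist3h2ba: tattAATAAAtttggttcaattttggccac
Hist2h2be: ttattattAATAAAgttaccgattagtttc

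A few genes held most of the histone reads. Hist1h1c, Hist1h2ao and Hist3h2a held 79.6% of the reads of all 61 members at 0 days, 78.7% at 3 days and 78.0% at 5 days. At 0 days 37 members had under 10 reads, and 5 had none (Hist1h2ah, Hist1h2bn, Hist1h3h, Hist1h4b and Hist2h2aa2). At least 1 RPKM was reached by 29, 31 and 24 members at 0, 3 and 5 days. The median level was 0.916, 1.01 and 0.671 RPKM at 0, 3 and 5 days. Per length, 5 members passed 10 RPKM in every library: Hist1h2ao, Hist1h1c, Hist1h2bc, Hist3h2a and Hist1h4i. No H3 gene passed 2 RPKM in any library.

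**Figure D1:**
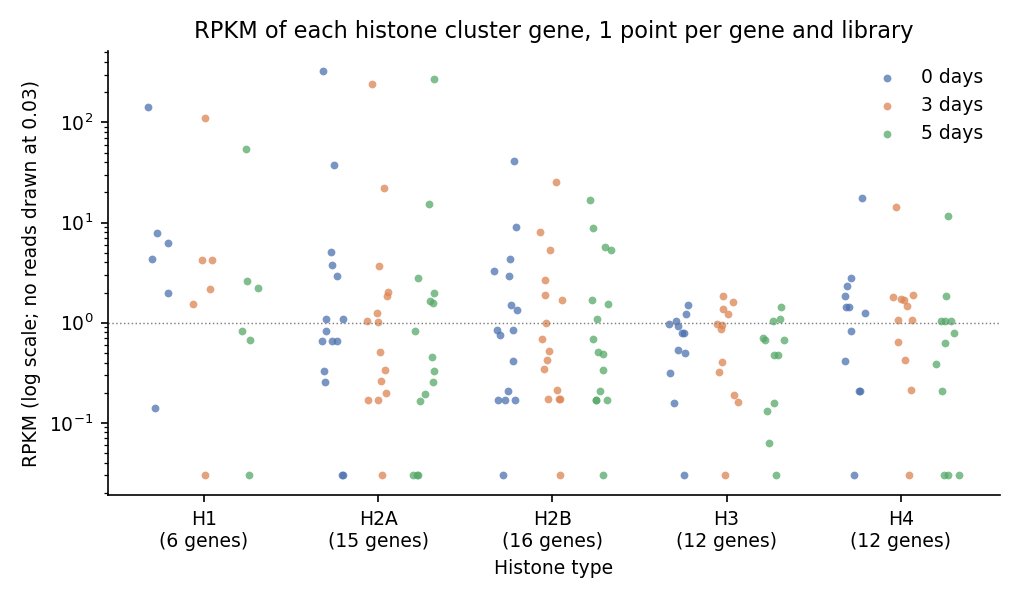
RPKM on a log scale of each histone cluster gene in the libraries of 0, 3 and 5 days of LECT2, with 1 point per gene and library and genes without reads drawn at 0.03. One gene stands far above the others in H1 (Hist1h1c), H2A (Hist1h2ao) and H4 (Hist1h4i), and the H3 genes lie between 0 and 1.85 RPKM.

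Summed over all members, histone reads were lower after LECT2, while the size of the difference between 3 and 5 days depended on which abundant genes were included. The sums were 9163, 6589 and 5055 reads at 0, 3 and 5 days, which corresponds to 590.2, 435.0 and 325.8 RPM. The log2 ratio of summed reads was −0.44 at 3 against 0 days (interval −0.49 to −0.39). At 5 against 0 days it was −0.86 (−0.91 to −0.81), a ratio of 0.552. At 5 against 3 days it was −0.42 (−0.47 to −0.36), but −0.12 without Hist1h1c and 0.0098 over the members of at most 1000 bases. Without Hist1h1c, Hist1h2ao and Hist3h2a, the other 58 members held 1865, 1404 and 1110 reads, with ratios of −0.37 and −0.75 at 3 and 5 days against 0 days and of −0.37 at 5 against 3 days. Under edgeR's TMM scaling, which lowers every log2 ratio by 0.08 at 3 days and by 0.31 at 5 days, the sums over all members differed by −0.52 and −1.17.

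The histone types did not move by the same amount. H1 held 3907, 2848 and 1431 reads at 0, 3 and 5 days, H2A held 3981, 2709 and 2746, H2B held 851, 674 and 610, H3 held 108, 113 and 88, and H4 held 316, 245 and 180. The share of H1 among the histone reads was thus 42.6% at 0 days, 43.2% at 3 days and 28.3% at 5 days, and that of H2A went from 43.4% and 41.1% to 54.3%. Single genes weigh on these sums, and at 5 against 0 days the H2A ratio was −1.20 without Hist1h2ao and the H2B ratio 0.13 without Hist1h2bc. At 3 against 0 days the log2 ratio was −0.42 for H1, −0.52 for H2A, −0.30 for H2B and −0.33 for H4. For H3 it was 0.10, with an interval from −0.29 to 0.49. At 5 against 0 days H1 had a ratio of −1.45 (−1.54 to −1.36), H4 of −0.81 (−1.08 to −0.54), H2A of −0.53 (−0.61 to −0.46), H2B of −0.48 (−0.63 to −0.33) and H3 of −0.29 (−0.72 to 0.12). The interval of H1 lay below those of the other 4 types, which overlapped one another. Between 3 and 5 days H1 differed by −1.03 (−1.12 to −0.94) and H2A by −0.02 (−0.09 to 0.06). These are comparisons of read counts between single libraries.

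**Figure D2:**
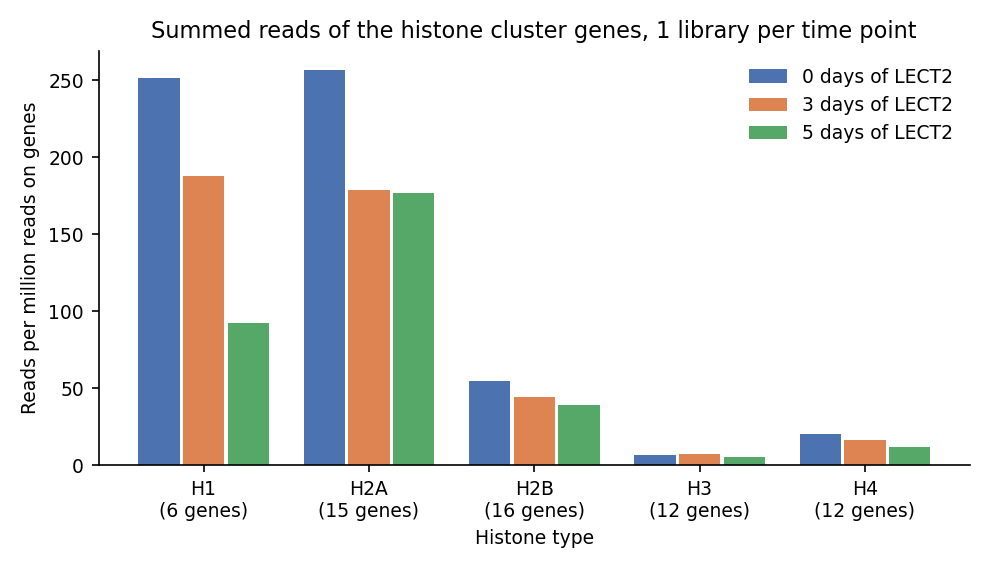
Summed reads of the members of each histone type, in RPM, in the single library of each time point. The bars of H1 go from 251.7 through 188.0 to 92.2, and those of H2A from 256.4 to 178.8 and 177.0.

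**Figure D3:**
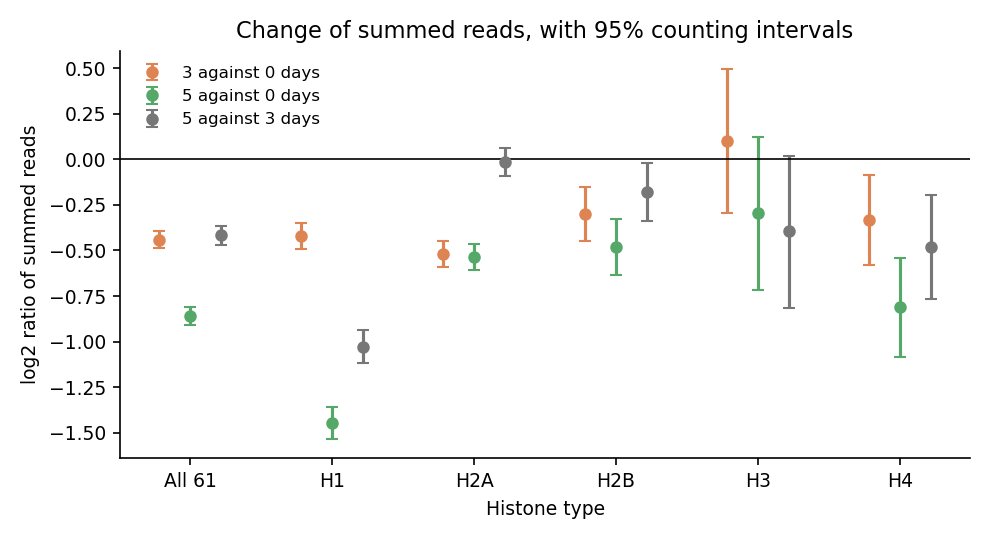
The log2 ratio of summed reads between time points, for all 61 members and for each histone type, with exact 95% intervals that cover counting error only. H1 at 5 days (−1.45) lies lowest, and the intervals of H3 all reach 0 or above it.

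The H1 genes code for the linker histones. Hist1h1c is the H1 gene with the most RNA here (chromosome 13, 23738808 to 23740367, plus strand) and is known to be made also as polyadenylated mRNA. It had 3527, 2624 and 1322 reads at 0, 3 and 5 days (144, 110 and 54.0 RPKM). Its level was lower at each step, differing from 0 days by −0.39 (−0.46 to −0.32) on the log2 scale after 3 days and by −1.41 (−1.51 to −1.32) after 5 days. Hist1h1e had 129, 64 and 25 reads, with log2 ratios of −0.94 (−1.43 to −0.53) and −2.24 (−3.05 to −1.74). In GENCODE M21 it overlaps a Hist1h2be transcript on the same strand, so the 2 genes may share reads.

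The other somatic H1 genes had the same order of levels, highest at 0 days and lowest at 5 days. Hist1h1a had 92, 48 and 30 reads, with a log2 ratio of −1.58 (−2.26 to −1.01) at 5 against 0 days. Hist1h1d had 92, 69 and 31 reads (−1.44, −2.21 to −0.97). Hist1h1b had 65, 43 and 23 reads (−1.46, −2.25 to −0.79). Hist1h1t, the testis H1, had 2, 0 and 0 reads. These 5 somatic H1 genes had the 5 largest falls at 5 days among the 19 members with at least 20 reads at 0 or 5 days and over 3 reads in both. Between 3 and 5 days the 5 ratios ran from −1.29 (Hist1h1e) to −0.69 (Hist1h1a), and every interval lay below 0. Without Hist1h1c, which held 90.3% of the H1 reads at 0 days, the ratio of the H1 sum at 5 against 0 days was −1.80.

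H2A is a core histone. Hist1h2ao (chromosome 13, 21810465 to 21810944) had 2609, 1901 and 2150 reads, and at 327, 244 and 270 RPKM it had the highest level of any member. Against 0 days its ratio was −0.42 (−0.51 to −0.34) at 3 days and −0.28 (−0.36 to −0.20) at 5 days, and both turned positive (0.19 and 0.36) once the trend of the ratio on gene length was removed. Between 3 and 5 days it differed by 0.14 (0.05 to 0.23), and by −0.08 under TMM scaling. Its identity is uncertain: 93.5% of the 50-base stretches of its transcript also occur in other genes, 48 in all, so that the reads listed there may come from several H2A genes. Gm19658 is also annotated over it on the opposite strand, which these unstranded libraries cannot tell apart.

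Hist3h2a lies apart from the large cluster (chromosome 11, 58954685 to 58956830) and had 1162, 660 and 473 reads. Against 0 days it differed by −0.78 (−0.92 to −0.64) at 3 days and by −1.29 (−1.45 to −1.14) at 5 days. The annotation places Trim17 on the same strand over part of it. Hist1h2ac had 114, 77 and 64 reads, with a ratio of −0.80 (−1.30 to −0.38) at 5 days. The testis gene Hist1h2aa had 2, 2 and 0 reads. The remaining 11 H2A genes had at most 31 reads in any library, and none had an interval on one side of 0 without rescaling. Under TMM scaling the interval lay below 0 for Hist1h2ak at 3 and 5 days and for Hist1h2af at 5 days. Median-of-ratios factors move the ratios nearly as far, by −0.08 at 3 days and −0.30 at 5 days, but intervals were not counted with them.

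H2B is the partner of H2A in the nucleosome, and its genes went both ways. Hist1h2bc, known to be made also as polyadenylated mRNA, had 470, 281 and 192 reads, with log2 ratios of −0.70 (−0.93 to −0.49) and −1.29 (−1.54 to −1.05). Hist2h2be, also known as a polyadenylated histone mRNA (chromosome 3, 96221119 to 96223738), had 176, 212 and 216 reads. Its level was higher at 3 days (0.30, 0.01 to 0.60) and at 5 days (0.29, 0.0025 to 0.59), but under TMM scaling its ratio at 5 days was −0.011. None of its 50-base stretches occurs in another gene. Hist1h2bg had 28, 25 and 54 reads, with a ratio of 0.93 (0.26 to 1.66) at 5 against 0 days and 1.05 (0.37 to 1.82) at 5 against 3 days, of which the former interval reaches below 0 under TMM scaling.

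Hist3h2ba, in the same cluster as Hist3h2a, had 86, 75 and 84 reads and a ratio of −0.03 (−0.48 to 0.42) at 5 days. Hist1h2be had 29, 38 and 19 reads (−0.52, −1.53 to 0.27), and between 3 and 5 days its ratio was −0.90 (−1.91 to −0.20). Thus Hist1h2bc was lower while Hist3h2ba had nearly the same reads and Hist2h2be and Hist1h2bg had more. Without Hist1h2bc, which held 55.2% of the H2B reads at 0 days, the ratio of the H2B sum was 0.08 at 3 days and 0.13 at 5 days. The other 11 H2B genes had at most 25 reads in any library.

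H3 and H4 form the centre of the nucleosome, and their genes had few reads. Hist2h3c1 had 43, 44 and 41 reads, with a ratio of −0.06 (−0.72 to 0.58) at 5 days. All of its 50-base stretches occur in other genes, and Gm20634 is annotated over it on the same strand, so its reads cannot be assigned to it with certainty. Hist1h3f had 16, 13 and 11 reads and Hist1h3a 8, 15 and 9. The remaining 9 H3 genes had at most 10 reads in any library.

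Hist1h4i, the H4 gene with the highest level, had 153, 123 and 102 reads. Against 0 days its ratio was −0.28 (−0.63 to 0.07) at 3 days and −0.58 (−0.96 to −0.21) at 5 days, and 0.0084 at 5 days once the length trend was removed. Hist4h4, the single gene of its cluster, had 105, 64 and 46 reads, with ratios of −0.64 (−1.15 to −0.22) and −1.12 (−1.72 to −0.68). Hist2h4 had 15, 10 and 10 reads. The remaining 9 H4 genes had at most 13 reads in any library, among them Hist1h4b with 0, 5 and 5.

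**Figure D4:**
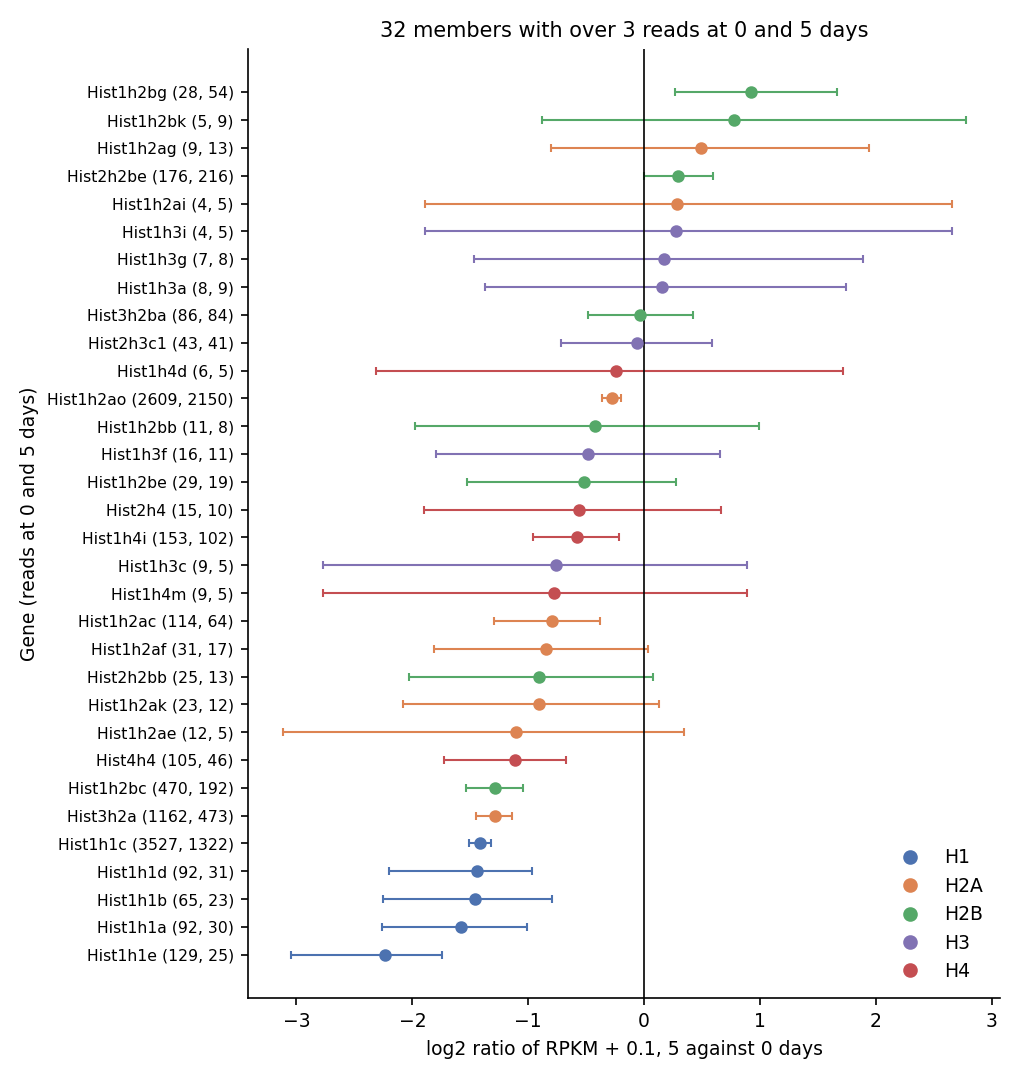
The log2 ratio of RPKM + 0.1 at 5 against 0 days for the 32 members with over 3 reads in both libraries, with exact 95% counting intervals, coloured by histone type and with reads at 0 and 5 days in parentheses. The 5 somatic H1 genes lie at the bottom, from −2.24 to −1.41, and Hist1h2bg (0.93) lies at the top.

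Counted over all members, lower levels were the more frequent at 5 days. Of the 35 members over the floor at 3 against 0 days, the interval lay below 0 for 8, or 22.9%, and above 0 for 1 (Hist2h2be). Over all genes above the floor these shares were 22.8% and 35.6%, so that the share below 0 at 3 days was near the background. Of 32 at 5 against 0 days it lay below 0 for 11 (20% of all genes) and above 0 for 2, Hist1h2bg and Hist2h2be (49% of all genes), and it covered 0 for 19. Of 31 at 5 against 3 days it lay below 0 for 8 (13.5% of all genes) and above 0 for 2, Hist1h2ao and Hist1h2bg (46.9% of all genes). Whether an interval clears 0 depends also on a gene's reads. Under TMM scaling it lay below 0 for 11, 15 and 11 members and above 0 for 0, 0 and 1 (Hist1h2bg) in the 3 comparisons, with 27.9%, 33% and 25.2% of all genes below 0 and 30.4%, 34% and 26.2% above. The 24 members with at least 30 reads in all comprised 14 that were lower at each step (14% of all genes), 1 that was higher at each step, Hist1h2ag (42.7% of all genes), 4 lowest at 3 days (29.1% of all genes) and 5 highest at 3 days (14.2% of all genes).

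A change of at least 2-fold was counted among the genes with at least 1 RPKM in either library, which left 33 members in each comparison. At 3 against 0 days none of the 33 was 2-fold lower, with 2.41% of all genes so called, and 2 passed 2-fold higher, with 4.08% of all genes. These were Hist1h3i, with 4, 9 and 5 reads and an interval of −0.64 to 3.36, and Hist1h4b, with no read at 0 days, whose place in the count is set by the pseudocount. At 5 against 0 days 12 members were 2-fold lower, or 36.4%, where 5.91% of all genes were. This count was 7 with the length trend removed, 6 with a pseudocount of 1 and 5 with a minimum of 5 RPKM, and under TMM scaling it was 18 while that of all genes went from 680 to 1158. The minimum of 5 RPKM leaves fewer than 33 members to count, so that 5 is not out of 33. Counts of all genes that moved under these settings are given in the last paragraph. Only Hist1h4b was counted as 2-fold higher, again from no read at 0 days to 5 reads, where 15.5% of all genes were. At 5 against 3 days 7 members, or 21.2%, were 2-fold lower (3.45% of all genes), and 2 were 2-fold higher (1.95% of all genes). The count of 7 became 1 with a pseudocount of 1 or with a minimum of 5 RPKM, the latter again over fewer than 33 members. Of the 7, Hist1h2ae, Hist1h4h, Hist1h4m and Hist2h2ab had at most 13 reads and an interval that covered 0 or a library at the floor, and of the 2 higher ones Hist1h2bk had 1 read at 3 days and 9 at 5 days. A member that passed the minimum through its higher library alone could only be counted in that direction, so that these counts do not cover all 61 members. Of the 12 genes lower at 5 days, 5 were H1 genes, and 4 (Hist1h2ae, Hist1h2bj, Hist1h4c and Hist1h4h) had few reads and an interval that reached 0 or a library at the floor. Among members, 27 averaged 1 RPKM or more over the 3 libraries, and their median ratios were −0.39, −0.80 and −0.51 at 3 against 0, 5 against 0 and 5 against 3 days. With the length trend removed the first of these was 0.15. Over all 11144 genes at that level the medians were 0.10, 0.31 and 0.25.

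Gene length moved with these ratios. Most histone genes are short, with a median listed length of 480 bases, and short genes as a whole had lower ratios. All 1020 genes of at most 1000 bases had medians of −0.49 (3 against 0 days), −0.45 (5 against 0 days) and 0.08 (5 against 3 days). For the 19 members in that range the medians were −0.28, −0.76 and −0.58. Over the 8 longer members they were −0.45, −1.20 and −0.49, where the 10124 longer genes had 0.15, 0.37 and 0.27. Once the length trend was removed, the ratio of the sum over all members was −0.11 at 3 days, −0.52 at 5 days and −0.54 at 5 against 3 days, and that of H1 at 5 days was −1.48. The ratio of H2A at 5 days became −0.022 and that of H2B at 3 days 0.02. The part of length in the lower histone reads at 3 days was not tested further.

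Members were also summed by whether their transcript had a poly(A) signal, and the order of the groups at 5 days turned with 1 gene in each. The 15 members with a poly(A) signal near the annotated end held 5326, 3879 and 2323 reads, and the 46 without one held 3837, 2710 and 2732. At 3 days the log2 ratios were −0.42 and −0.47. At 5 days they were −1.20 (−1.27 to −1.13) with the signal and −0.49 (−0.56 to −0.42) without it. Hist1h1c held 66.2% of the reads of the first group at 0 days and Hist1h2ao 68.0% of those of the second, and without these genes the ratios at 5 days were −0.84 (−0.96 to −0.73) with the signal and −1.08 (−1.22 to −0.93) without it. The second group includes Hist1h2bc (470, 281 and 192 reads), which is known to be made also as polyadenylated mRNA. The split therefore does not separate polyadenylated from other histone mRNA. By listed length, the ratios at 5 days were −1.26 for the 11 members over 1000 bases and −0.42 for the 50 shorter ones. Without Hist1h1c and Hist1h2ao they were −1.01 (−1.13 to −0.90) and −0.81 (−0.95 to −0.67), with overlapping intervals.

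The clusters also differed. Hist1 held 7527, 5494 and 4162 reads, with a log2 ratio of −0.85 (−0.91 to −0.80) at 5 days. Hist2 held 280, 293 and 285 reads, with a ratio of 0.03 (−0.22 to 0.27). Hist2h2be made up 62.9% of the Hist2 reads at 0 days, and the other 8 genes of that cluster held 104, 81 and 69 reads. Hist3 held 1251, 738 and 562 reads (−1.15, −1.30 to −1.01), of which Hist3h2a had 92.9% at 0 days.

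Many histone genes lie head to head and share the DNA between their starts. In GENCODE M21, 10 pairs of members ran in opposite directions with starts at most 1000 bases apart. Hist1h2ac and Hist1h2bc, 251 bases apart, were both lower at 5 days (−0.80 and −1.29). Hist1h2ae, with 12, 11 and 5 reads, lies 176 bases from Hist1h2bg, which had 28, 25 and 54. Hist2h2ac, with 4, 1 and 0 reads, lies 239 bases from Hist2h2be, which had 176, 212 and 216. Reads thus differed in number within these pairs, and the intervals of Hist1h2ae (−3.12 to 0.35) and Hist1h2bg (0.26 to 1.66) at 5 days overlapped. Most of the 10 pairs had at least 1 member at the floor at 0 or 5 days, so that their ratios could not be compared.

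The promoters of members with large differences are shown because these genes share known histone elements. RefSeq (GRCm38.p6) gave a window of 300 bases, 250 of them before the start, for 55 of the 61 members, with 56 windows in all. The octamer ATTTGCAT was found on either strand in 23.2% of these windows and in 1.74% of all 32851 windows. It was in 7 of 15 H2A and 6 of 14 H2B windows and in none of H1, H3 or H4. CCAAT was in 85.7% of member windows and 37.4% of all windows, TATAAA in 55.4% and 13.6%, and GGTCC in 41.1% and 45.5%. GGTCC was in 10 of 11 H4 windows. AAACACA, looked for after the windows had been read, was in 5 of 6 H1 windows, in 14.3% of member windows and in 7.18% of all windows. A match to these letters is not a measured site. The lines below give the 250 bases before the start, with matches to CCAAT or TATAAA, to AAACACA and to the octamer on either strand in capitals.
Hist1h1c, chr13:23738557-23738806, plus strand: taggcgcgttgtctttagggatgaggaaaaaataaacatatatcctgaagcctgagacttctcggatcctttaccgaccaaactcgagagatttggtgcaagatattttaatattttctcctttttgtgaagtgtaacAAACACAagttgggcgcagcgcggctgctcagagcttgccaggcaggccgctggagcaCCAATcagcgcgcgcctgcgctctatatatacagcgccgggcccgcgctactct
Hist1h1e, chr13:23622559-23622808, minus strand: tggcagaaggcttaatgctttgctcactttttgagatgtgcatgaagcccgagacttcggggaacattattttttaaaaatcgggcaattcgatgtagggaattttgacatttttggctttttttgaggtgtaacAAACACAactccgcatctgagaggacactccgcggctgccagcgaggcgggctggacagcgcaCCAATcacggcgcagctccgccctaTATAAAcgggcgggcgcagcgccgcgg
Hist1h2bg, chr13:23571150-23571399, plus strand: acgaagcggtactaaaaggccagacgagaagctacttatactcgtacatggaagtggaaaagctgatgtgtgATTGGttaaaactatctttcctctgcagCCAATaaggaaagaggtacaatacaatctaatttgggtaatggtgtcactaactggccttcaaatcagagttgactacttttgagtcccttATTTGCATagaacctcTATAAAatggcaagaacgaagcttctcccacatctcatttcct

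Genes that act on histone mRNA or carry histone protein mostly had ratios above 0, as did most genes. The list of histone mRNA transcription, processing and decay had 17 genes, all listed, and 16 of them averaged 1 RPKM or more. Their medians were 0.40 (3 days) and 0.88 (5 days), with 13 above 0 and 3 below it at 5 days, where 67.6% of all genes were above 0 with a median of 0.31. The median at 5 days was 0.58 under TMM scaling and 0.24 with the length trend removed, which gave 0.047 at 3 days. Of the 16 genes, 6 were 2-fold higher at 5 days, where 15.5% of all genes were. Slbp, which codes for the stem-loop binding protein, had 2954, 2172 and 2801 reads, with a ratio of −0.08 at 5 days. Cpsf2, a subunit of the cleavage complex, had 1711, 1865 and 2539 reads (0.57), and Zcchc6, a uridyl transferase, 1123, 2644 and 2333 (1.05). Of the 14 listed histone chaperones, 12 were higher and 2 lower at 5 days, with a median of 0.53, or 0.22 under TMM scaling and 0.18 with the length trend removed. The chaperones with the most reads had ratios of 0.19 (Nap1l1), 0.55 (Ssrp1) and −0.11 (Rbbp4).

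Most S-phase genes had ratios above 0 at 5 days, when histone reads were lowest. Of the 25 listed S-phase genes 24 averaged 1 RPKM or more, and 24 had ratios above 0 at 5 days, or 20 under TMM scaling (67.6% and 50.5% of all genes), with a median of 0.68, or 0.37 under TMM scaling and 0.29 with the length trend removed. At 3 days 10 were higher and 14 lower, with a median of −0.037, where 57.7% of all genes were higher. Pcna, the sliding clamp of DNA polymerase, had 6501, 4869 and 6586 reads (0.02 at 5 days). Mcm7, a subunit of the replicative helicase, had 4243, 3488 and 5609 (0.40), and Rrm1, a subunit of ribonucleotide reductase, 3206, 3536 and 5814 (0.86).

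Histone variants outside the clusters, which are mostly made as polyadenylated mRNA throughout the cell cycle, had medians of −0.46 (3 days) and −0.17 (5 days) over 10 genes, with 3 higher and 7 lower at 5 days and a median of −0.47 there under TMM scaling. H3f3b had 41444, 28931 and 21904 reads (−0.92 at 5 days), H3f3a 14436, 13864 and 12265 (−0.23), and H2afy 13139, 8454 and 11518 (−0.19). Both H3f3 genes code for the same H3 variant protein. A 2-fold difference in either direction was seen in none of the 11 variants tested at 5 days, where 15.5% of all genes were 2-fold higher and 5.91% lower. TMM scaling, which adds −0.31 to each ratio there, would take H3f3b past 2-fold lower. In other RNAs without a poly(A) tail, summed RPM were 124.2, 56.8 and 38.5. The 49 such genes that averaged 1 RPKM or more had a median of −0.44 at 5 days, or 0.52 with the length trend removed, with 10 of 58 higher by 2-fold or more and 19 lower (15.5% and 5.91% of all genes). Without Rn7sk, which had 1132 of the 1928 reads at 0 days, the log2 ratio of their sum at 5 days was −0.47 in place of −1.69. The members of that list with the most reads were Rn7sk with 1132, 347 and 23 reads, Rpph1 with 138, 50 and 35, and Snora81 with 26, 49 and 108.

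The make-up of the marrow libraries also changed beside the histone reads. At 5 days each of the 11 listed late neutrophil markers was lower by 2-fold or more (5.91% of all genes), and their summed RPKM was 150032, 115995 and 41373 at 0, 3 and 5 days. Ly6g was not listed. The 5 promyelocyte markers, among them Mpo and Elane, were all higher at 5 days (2241, 2075 and 3619 RPKM), where 67.6% of all genes were higher, and 4 of the 5 were higher under TMM scaling. Of 12 erythroid markers 8 were lower, or 10 under TMM scaling (6116, 4860 and 2176 RPKM), and of 8 B cell markers 7 were lower (1883, 1507 and 1372 RPKM). All 6 T and NK cell markers were lower (162, 95.8 and 137 RPKM), with ratios from −1.99 to −0.075. Of the 7 osteolineage markers all 5 that averaged 1 RPKM or more were lower (45.6, 50.3 and 19.0 RPKM), with ratios from −3.98 to −0.0094, the last close to no change. Beside these counts of lower markers stand the 67.6% of all genes that were higher. No marker of these lists was without reads at 0 or 5 days. The part of these cell types in the histone reads was not tested.

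Sequence shared with other genes limits what single members show. The median member had 49.3% of its 50-base stretches in at least 1 other gene, and 28 members had over 50%. These other genes were not only histone copies, because genes annotated over the same place were counted too. Of the 61 members, 21 overlap another annotated gene. Without Hist1h2ao, those 28 held 202, 167 and 152 reads in all, and the highest of them had 43, 44 and 41. The 33 members with at most 50% shared held 6352, 4521 and 2753 reads. Across the 61 members, Spearman's rho of the shared percent with summed reads was −0.35 and that of the listed length with summed reads was 0.64. These are descriptions, since the members share libraries and sequence and longer genes collect more reads. How reads that matched several genes were counted was not given in the sources used here.

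**Figure D5:**
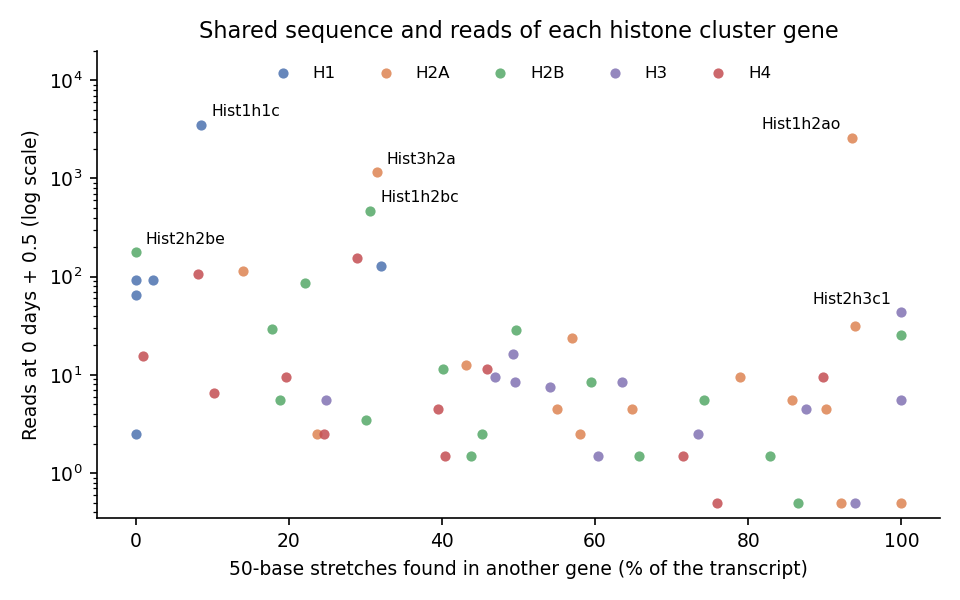
Reads at 0 days plus 0.5, on a log scale, against the percent of 50-base stretches of the annotated transcript that occur in another gene, with 1 point per histone cluster gene. Hist1h2ao (93.5% shared, 2609 reads) stands alone at the upper right, while Hist1h1c (8.54%, 3527 reads) and Hist2h2be (0%, 176 reads) share little sequence.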

How the data were processed

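BM cells were flushed from mice given LECT2 for 0, 3 or 5 days, and poly(A) RNA was captured on oligo(dT) beads for an unstranded Illumina TruSeq kit, so overlapping genes on opposite strands cannot be told apart. The authors deposited 3 tables, each with whole read counts per gene and the RPKM made from them for a pair of libraries. The methods name Cufflinks for quantitation, and the submitters' processing notes name the build mm8. Recomputing RPKM from the counts, the listed lengths and the reads on all listed genes gave the deposited value for every member. The authors wrote 0.01 RPKM for genes without reads, which was replaced by 0. The tables also hold the authors' log2 ratios, P values and false discovery rates, which were not used.

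The members, gene lists and settings were chosen with earlier results of these data known. Of 17559 rows, 28 had no symbol, and 17 of these were named from the RefSeq gene table by gene ID. Names listed more than once were represented by their entry with the highest mean level. Ratios used a pseudocount of 0.1 RPKM, a minimum of 1 RPKM in either library and a threshold of 2-fold. Named members were the 3 with the most reads of each type, 4 members known as poly(A) mRNA, the 5 largest rises and 5 largest falls at 5 days among those with at least 20 reads at 0 or 5 days and over 3 reads in both (only 2 were higher), and Hist1h1t, Hist1h2aa, Hist1h2ba (no row used), Hist3h2a, Hist3h2ba and Hist4h4. Other members with few reads are named as examples after their values were seen. Other lists are given by counts, medians and the 3 members with the most reads.

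Stem-loops (a 6-base stem beginning with GG, pyrimidines and T, a 4-base loop of T-rich letters, and the exact reverse complement of the stem), poly(A) signals and shared stretches came from the GENCODE M21 transcript nearest in length to the listed length. Coordinates are those of GRCm38, not of mm8. Alternatives were TMM factors (edgeR 4.0.16), median-of-ratios size factors (DESeq2 1.42.0), reads outside the 100 genes with the most reads, a lowess length trend (span 0.3, statsmodels 0.14.6), sums of all rows, other pseudocounts, minimums and thresholds, and sums over fewer members. Leaving out Hist1h1c, Hist1h2ao and Hist3h2a, or the gene with the most reads of the poly(A), length and other-RNA groups, and TMM scaling of the interval, S-phase and marker counts, were added after seeing the data. Python 3.11.15, pandas 2.3.3, numpy 2.4.6, scipy 1.17.1 and R 4.3.3 were used. On simulated counts for 5 against 0 days, all 200 genes changed 4-fold were recovered (100%) among 11255 genes tested, and 0.443% of unchanged genes were called. The changed genes were drawn from those that averaged at least 5 RPKM, above most members, and the counts varied by counting error alone. These shares therefore do not cover the members with few reads or the variation between mice.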

Additional observations from a re-analysis of the deposited data

How the results depend on the processing

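No paired analysis was possible because each time point had 1 library. All values here are log2 ratios at 3 against 0, 5 against 0 and 5 against 3 days, in that order, unless named otherwise, and the cause of a change was not tested. TMM gave −0.52, −1.17 and −0.64 for all members, −0.50, −1.76 and −1.25 for H1, −0.60, −0.84 and −0.24 for H2A, −0.79 and −0.40 for H2B in the last 2 comparisons, and −1.12 for H4 at 5 against 0 days. Median-of-ratios factors gave −0.52, −1.15 and −0.63 for all members, −0.50, −1.74 and −1.25 for H1, −0.60, −0.83 and −0.23 for H2A, −0.78 and −0.40 for H2B, and −1.11 for H4. Leaving the 100 genes with the most reads out of the totals gave −0.51, −1.04 and −0.53 for all members, −1.63 and −1.14 for H1, −0.72 and −0.13 for H2A in the last 2 comparisons, and −0.66 for H2B at 5 against 0 days. With the length trend removed, the ratios were −0.11, −0.52 and −0.54 for all members, −0.26 and −1.24 for H1 (3 against 0 and 5 against 3 days), −0.046 and −0.022 for H2A (against 0 days), 0.020 and −0.25 for H2B, and 0.11 and −0.38 for H4. H3 was then 0.50 at 3 days, −0.0045 at 5 days and −0.53 between them, and the median over members at 3 days was 0.15.

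Without the member with the most reads of each sum, all members gave −0.59 and −0.12 in the last 2 comparisons, H1 −0.73 and −1.80 against 0 days, H2A −0.73, −1.20 and −0.47, and H2B 0.080, 0.13 and 0.054. Members of at most 1000 bases gave −0.42 and 0.0098 for all in the last 2 comparisons, −0.77, −1.58 and −0.81 for H1, −0.42, −0.29 and 0.13 for H2A, and −0.57 and −0.78 for H2B against 0 days. Without Hist1h1c, Hist1h2ao and Hist3h2a, a choice made after seeing the data, all members gave −0.37 and −0.75 against 0 days, H1 −0.73 and −1.80, and H2A −0.77 and −0.30 in the last 2 comparisons. Without the gene with the most reads of each group, also chosen after seeing the data, members with a poly(A) signal gave −0.48, −0.84 and −0.36, those without one −0.57, −1.08 and −0.51, members over 1000 bases −0.56, −1.01 and −0.46, and shorter ones −0.81 and −0.36 in the last 2 comparisons. The other RNAs without a poly(A) tail gave 0.13 at 5 against 3 days without Rn7sk, where all of them gave −0.56. Of 32 ratios of named genes with an interval on one side of 0, 5 changed sign under some setting, as did 10 of 25 whose interval covered 0. The former were Hist1h2ao (0.19 and 0.36 against 0 days with the length trend removed, and −0.081 by TMM and −0.075 by median-of-ratios factors at 5 against 3 days), Hist1h4i (0.0084 at 5 days with the trend removed) and Hist2h2be at 5 days (−0.011 by TMM, −0.00046 by median-of-ratios factors and −0.059 with the trend removed).

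Counts of members at least 2-fold lower and higher, and of all genes, moved as follows. TMM gave 2 members lower at 3 days, 0 higher at 5 days and 1 higher at 5 against 3 days, with 1158 genes lower and 816 higher at 5 days and 66 higher at 5 against 3 days. Median-of-ratios factors gave the same member counts, with 1134, 846 and 69 genes. Without the top 100 genes the member counts were again 2, 0 and 1, with 1146 genes higher at 5 days and 111 at 5 against 3 days. With the length trend removed 7 members were lower at 5 days, and 5, 4 and 1 were higher, as were 293, 581 and 75 genes. A pseudocount of 1 gave 6 and 1 members lower in the last 2 comparisons, 1 higher at 3 days and 1 higher at 5 against 3 days, 120 genes lower at 3 days, and 190, 1140 and 52 genes higher. A pseudocount of 0.01 gave 1 member lower at 3 days. A minimum of 5 RPKM gave 5 and 1 members lower in the last 2 comparisons and 0, 0 and 1 higher, 118, 421 and 258 genes lower, and 236 and 94 higher (3 against 0 and 5 against 3 days). Without a minimum, 9, 25 and 15 members were lower and 7, 4 and 4 higher, with 688, 1180 and 717 genes lower and 830 and 578 higher. At 4-fold, 1 and 1 members were lower in the last 2 comparisons, 1 was higher at 3 days and 1 at 5 against 3 days, with 33, 186 and 105 genes lower and 36, 153 and 13 higher. Members with an interval above 0 numbered 0, 0 and 1 under TMM, a choice made after seeing the data. Summing all rows of a name moved none of these values. Depth limits the members with few reads: 26, 29 and 30 of the 61 were at the floor in the 3 comparisons.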
